A study of Mus musculus with 34 samples.

Results

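Collagen genes and a small set of genes of the meningeal matrix were followed in RNA sequencing of the mouse brain. The members were every protein-coding gene of the deposited table whose symbol was Col followed by a digit, with 9 genes picked by name: Dcn, Lum, Ogn, Fmod, Aldh1a2, Slc6a13, Igf2, Fbln1 and Npnt. This gave 53 of 18548 genes, of which 43 were collagens, 9 were the named genes and 1, Col4a3bp, encodes a ceramide transfer protein and was caught by its symbol only. The libraries came from adult male C57BL/6J mice at postnatal day 56 without treatment, either wild type or heterozygous for a mutation of Myt1l, a zinc finger transcription factor of neurons. There were 5 heterozygote and 6 wild-type libraries of prefrontal cortex (PFC), 5 and 6 of hippocampus, and 6 of each genotype from striatum. Neither the kind of Myt1l allele nor whether libraries came from separate animals is stated in the labels, so p-values measure the spread between these libraries only. The 9 named genes were picked with earlier results of the same libraries known, among them a lower Dcn level in heterozygote striatum, so their genotype differences are given as a description with no test.

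Collagens are proteins of chains wound around each other, and they form fibrils, networks or short filaments outside cells. In the brain the fibril-forming kinds lie mostly in the meninges and around large vessels, where fibroblasts make them, while network-forming collagens build the basement membrane of every vessel. Small leucine-rich proteoglycans such as decorin coat collagen fibrils and set their width, and the choroid plexus, which makes cerebrospinal fluid, has a collagen-rich core of its own.

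Values are the authors' normalized counts, and their sum per library was 25786041 to 29798959. Myt1l itself was not lower in heterozygotes, with means of 6820 ± 456 (SD, n = 5) against 6650 ± 842 (SD, n = 6) in PFC, 6896 ± 385 against 6216 ± 594 in hippocampus and 8162 ± 954 against 7675 ± 552 in striatum. Tissue labels were checked with marker genes: all 6 striatal neuron markers were higher in striatum than in PFC, and all 5 hippocampal neuron markers were higher in hippocampus than in PFC. For a list of markers an index was computed, the mean of log2(normalized count + 1) over its genes. For 5 cortical neuron markers it lay between 11.8 and 12.0 in PFC and varied widely in striatum, from 6.13 to 9.72. Its highest striatum values were 9.72 in wild-type replicate 5 and 9.64 in heterozygote replicate 1. The part of this spread in the striatum values of the members was not tested. The index of 12 choroid plexus markers lay between 2.78 and 4.04 in PFC. In hippocampus it was 6.10 in heterozygote replicate 1 and 6.34 in wild-type replicate 6, against 8.50 to 10.3 in the others, and in striatum it was 6.01 in heterozygote replicate 1 against 8.52 to 10.3. Each column name ends in a code, and there are 12 codes over the 34 libraries. Codes thus recur between regions, such as 35-1M in wild type of all 3. What a code stands for is not stated, and the main fits treat the libraries as separate. The code 31-67M is shared by PFC wild-type replicate 6 and by heterozygote replicate 1 of hippocampus and of striatum. Genotypes were taken from the labels.

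Levels of different genes were compared as normalized counts per kilobase of annotated exon, averaged over all 34 libraries. The most abundant member was Igf2, a growth factor of meninges and choroid plexus, at 483 per kilobase. Among the fibrillar collagens, Col11a2 stood at 123 and Col5a1 at 80.5 per kilobase, above Col1a2 at 43.1, Col1a1 at 36.3 and Col3a1 at 12.8, the chains of the common fibrils of connective tissue. Among the network collagens, Col4a2 at 369 and Col4a1 at 240.4 per kilobase, the chains of vascular basement membranes, stood far above Col8a2 at 40.6 and Col8a1 at 30.3. Col6a1, a chain of beaded filaments, was at 461 per kilobase, and its partner Col6a2 at 50.8. On the surface of fibrils, Col9a3 stood at 166 and Col19a1 at 88.9 per kilobase. Col25a1, a transmembrane collagen made by neurons, was at 191 per kilobase, followed in that group by Col23a1 at 57.9. The multiplexins Col15a1 and Col18a1, found beside basement membranes, were at 41.4 and 33.6 per kilobase. The proteoglycans Fmod, Ogn and Dcn had similar levels per kilobase of 135, 122 and 112, with Lum at 39.1. Npnt, which encodes nephronectin, a ligand of the integrin that contains Itga8, was at 139 per kilobase. Aldh1a2, the enzyme that makes retinoic acid, was at 71.4, Fbln1 at 67 and the GABA transporter Slc6a13 at 61.8 per kilobase. The lowest levels were those of Col2a1 and Col6a6, at 4.60 and 1.88 per kilobase.

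**Figure D1:**
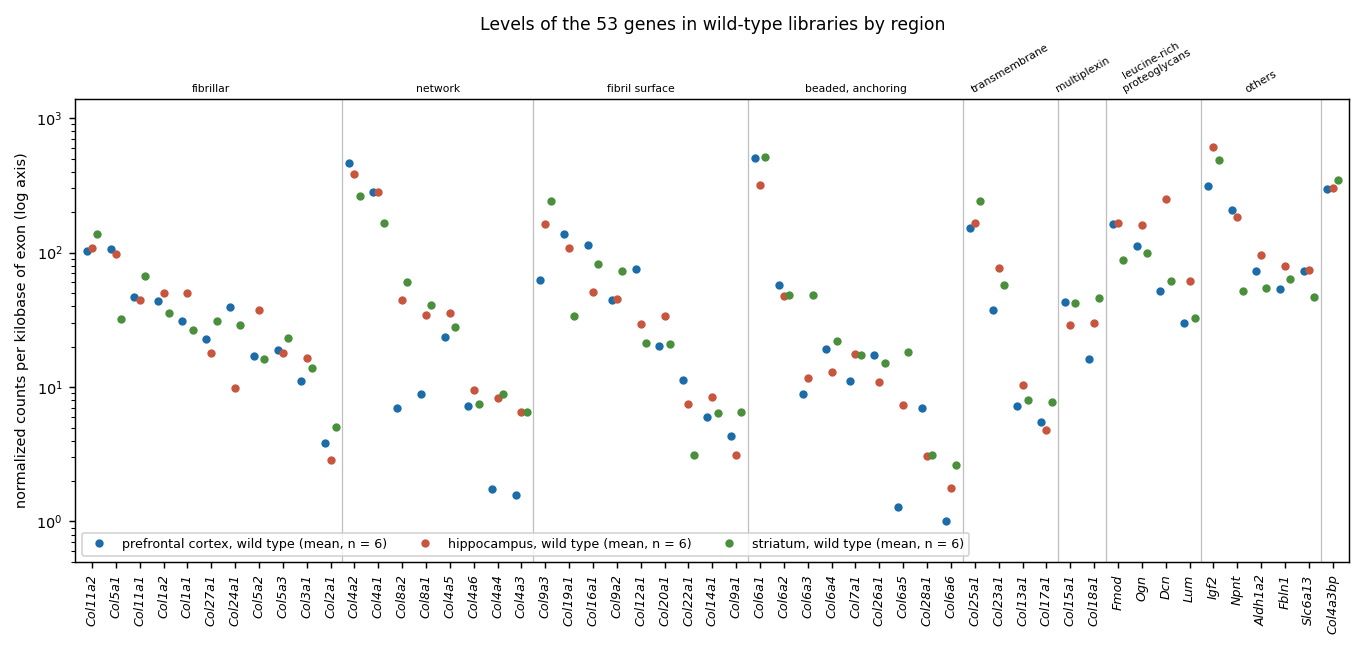
Mean normalized count per kilobase of exon in wild-type libraries for each of the 53 genes, on a log axis, with genes grouped by role and a point for each region (n = 6 each). Igf2, Col6a1 and Col4a2 lie at the high end, and Col8a1, Col8a2, Col4a3, Col4a4 and Dcn show points far apart between regions.

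The members varied more between libraries of a group than most genes did. The SD within a group on the log2 scale had a median of 0.34 over the 53 members and 0.16 over all genes with a mean of at least 10. The spread differed widely by gene: Col4a3bp at 0.061, Col4a2 at 0.092 and Col4a1 at 0.11 were the steadiest. Col4a3 at 1.18, Col17a1 at 1.08, Col8a1 at 1.02 and Col24a1 at 0.77 varied most.

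**Figure D2:**
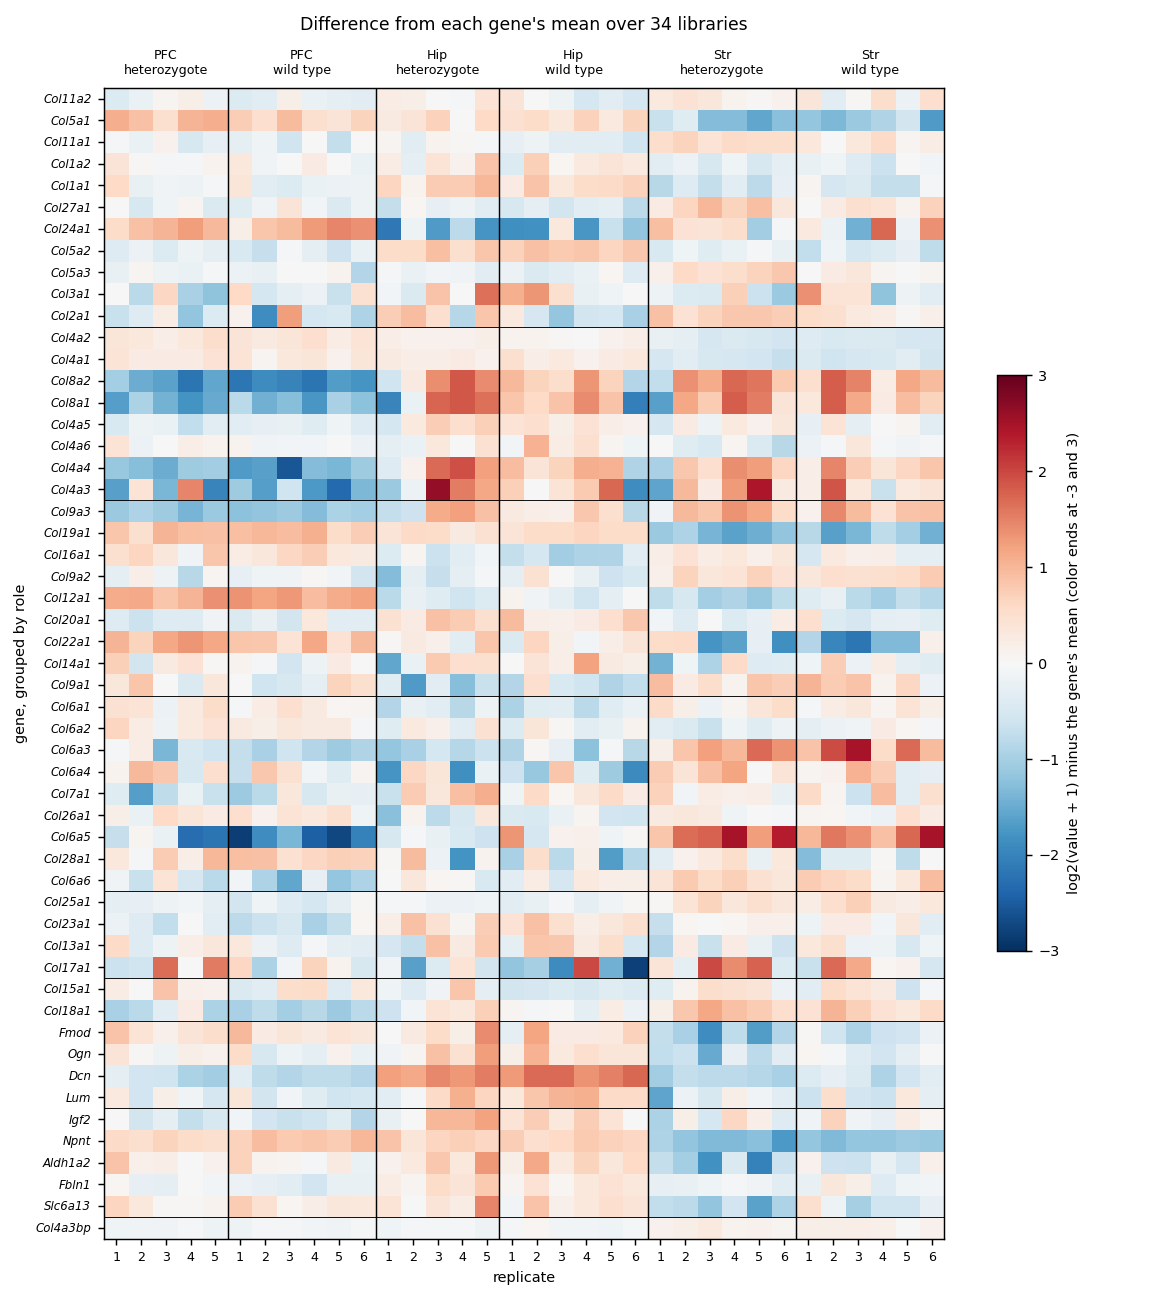
Log2(normalized count + 1) of each member in each of the 34 libraries minus that gene's mean over all libraries, with colours ending at 3 to either side. Columns are libraries by region and genotype; PFC columns are low for Col8a1, Col8a2 and Col4a4 and, but for heterozygote replicates 2 and 4, for Col4a3, hippocampus columns are high for Dcn, and Npnt is low in striatum.

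Regions were compared in the 18 wild-type libraries, with limma on log2(normalized count + 1) and Benjamini-Hochberg adjustment over all genes tested; a gene passed when its adjusted p was under 0.05. Decorin (Dcn, ENSMUSG00000019929, GRCm38 chromosome 10, 97479609 to 97518143) was the member that most set hippocampus apart. Its normalized counts ran from 1197 to 1639 in hippocampus (median 1516), from 269 to 400.0 in PFC (median 292) and from 262 to 416 in striatum (median 369). Every hippocampus library lay above every library of the other regions, and PFC and striatum overlapped. The log2 difference of PFC against hippocampus was -2.27 (SE 0.11; limma adjusted p = 4.83e-13) and that of hippocampus against striatum 2.03 (SE 0.11; limma adjusted p = 1.51e-12), while PFC against striatum did not pass (-0.23, limma adjusted p = 0.0838).

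Nephronectin (Npnt, ENSMUSG00000040998, chromosome 3, 132881745 to 132950291) had its low level in striatum. Wild-type libraries ran from 944 to 1175 normalized counts in PFC (median 1023), from 831 to 1010.2 in hippocampus (median 924) and from 234 to 276 in striatum (median 261). No striatum library came near the other regions, and PFC and hippocampus overlapped. Npnt was higher than in striatum by 2.00 (SE 0.06; limma adjusted p = 1.50e-16) in PFC and by 1.83 (SE 0.06; limma adjusted p = 1.95e-16) in hippocampus. The receptor subunit Itga8 was also higher in both, by 1.36 and 2.63 on the log2 scale, and it was lower in PFC than in hippocampus, at -1.27.

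Between PFC and hippocampus, 12 members were higher in PFC and 19 lower. Over all genes tested 46.3% passed, 22.7% higher and 23.6% lower, and with libraries scaled to equal totals, which moved the median of all genes from -0.01 to -0.10, the split of the members was 7 to 23. Of 8 network collagens 5 were lower in PFC: Col8a2 at -2.50 (SE 0.30; limma adjusted p = 6.44e-07), Col4a4 at -2.14, Col4a3 at -1.75, Col8a1 at -1.67 and Col4a5 at -0.58. Col4a2 was the only network collagen that was higher, at 0.27. Of 4 proteoglycans 3 were lower in PFC, Dcn, Lum (-1.03) and Ogn (-0.53), while Fmod was at 0.04 and at -0.05 with equal totals. Of the other named genes Igf2 (-0.96) and Fbln1 (-0.56) were lower and Npnt (0.17) higher.

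Fibrillar chains did not move together between PFC and hippocampus. Of 11, Col5a2 (-1.16; limma adjusted p = 3.62e-08) and Col1a1 (-0.68) were lower in PFC, and Col24a1 (2.16, SE 0.49; limma adjusted p = 0.00142) and Col27a1 (0.32) were higher. Of 9 collagens on fibril surfaces, Col12a1 (1.37; limma adjusted p = 1.28e-08), Col16a1 (1.17) and Col19a1 (0.33) were higher in PFC, and Col9a3 (-1.31) and Col20a1 (-0.73) lower. Among the 9 beaded filament and related collagens, Col28a1 (1.32), Col6a1 (0.68), Col26a1 (0.65) and Col6a2 (0.29) were higher in PFC. In that group Col6a5 (-2.38, SE 0.30; limma adjusted p = 1.10e-06), Col6a6 (-0.82) and Col7a1 (-0.70) were lower. The transmembrane Col23a1 was lower in PFC at -1.06, and the multiplexins went opposite ways, Col18a1 at -0.88 and Col15a1 at 0.49.

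Between PFC and striatum, 12 members were higher in PFC and 18 lower, where 56.6% of all genes passed, 27.7% higher and 29.0% lower. With equal totals, which moved the median of all genes to -0.15, the split was 11 to 23. Low values in PFC were again those of Col6a5 (-3.72, SE 0.30; limma adjusted p = 7.63e-10), Col8a2 (-2.97), Col4a4 (-2.31), Col8a1 (-2.10) and Col4a3 (-1.86), with Col6a3 at -2.27, Col9a3 at -1.91, Col18a1 at -1.50, Col6a6 at -1.36 and Col9a2 at -0.70. The vascular chains Col4a1 and Col4a2 were higher in PFC by 0.76 and 0.81, and Col19a1 (2.04; limma adjusted p = 5.67e-12), Col22a1 (2.03), Col12a1 (1.85) and Col5a1 (1.75; limma adjusted p = 1.14e-09) by more. Of the genes picked by name Fmod (0.91), Slc6a13 (0.71) and Aldh1a2 (0.44) were higher in PFC along with Npnt, and Igf2 was lower at -0.61.

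Between hippocampus and striatum, 20 members were higher in hippocampus and 17 lower, where 47.5% of all genes passed, 23.6% higher and 23.9% lower. With equal totals the split was 19 to 18. All 4 proteoglycans were higher in hippocampus, with Lum at 0.95, Fmod at 0.87 and Ogn at 0.67 beside Dcn. So were 4 of the 5 other named genes, with Aldh1a2 at 0.82, Slc6a13 at 0.71 and Fbln1 at 0.32 beside Npnt, while Igf2 did not pass (0.35). Fibrillar chains split 4 to 4: Col5a1 (1.63), Col5a2 (1.24), Col1a1 (0.93) and Col1a2 (0.47) were higher in hippocampus. Col24a1 (-1.42), Col27a1 (-0.77), Col11a1 (-0.58) and Col5a3 (-0.37) were higher in striatum. None of the 9 beaded filament collagens was higher in hippocampus and 5 were lower, led by Col6a3 at -1.94 and Col6a5 at -1.33.

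In bulk tissue, fewer cells of a type and less RNA per cell cannot be told apart, so markers of other cells stand beside these results. All 12 choroid plexus markers were lower in PFC than in the other regions, with medians of -4.94 against hippocampus and -5.42 against striatum. The 12 meningeal fibroblast markers that are no members had medians of -0.08 for PFC against hippocampus (0 higher, 2 lower), 0.70 for PFC against striatum (8 higher, 1 lower) and 0.84 for hippocampus against striatum (9 higher, 0 lower). The 8 oligodendrocyte markers were all lower in PFC (medians -0.38 and -1.05) and lower in hippocampus than in striatum (-0.64). The part of these cell types in the regional differences was not tested. The heterozygote libraries gave the same sign for 30 of the 31 members that passed between PFC and hippocampus, with Npnt at -0.10 as the exception. They did so for 30 of 30 between PFC and striatum and for 37 of 37 between hippocampus and striatum. Fewer passed in the same direction in both genotypes, with 21, 25 and 31 members in these comparisons. These members were selected for a difference in wild type, and the share of all genes with the same sign is not given.

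Co-variation between libraries was used to ask which members follow the meninges. The meningeal index was the mean log2 level of 12 meningeal fibroblast markers, among them the transporters Slc22a6, Slc6a20a and Slc13a4 and the transcription factors Foxc1 and Foxd1; none of the markers was at 0 in any library. Pearson's r was computed over the 34 libraries after the mean of each group was removed. It is given as a description, since the members were proposed with co-variation in mind. An r of at least 0.7 was reached by 4 of 53 members, where 0.170% of all genes reached it. These were Fmod at 0.89, Aldh1a2 at 0.82, Slc6a13 at 0.81 and Ogn at 0.80. Col1a2 at 0.67, Col1a1 at 0.66 and Dcn at 0.52 came next below, and Col15a1 at -0.47, Col25a1 at -0.35 and Col5a3 at -0.25 were lowest. The median r was 0.15 over the members and -0.01 over all genes.

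Single libraries show the pattern. Fmod reached 1064 normalized counts in hippocampus heterozygote replicate 5 and 895 in wild-type replicate 2, and 324 to 636 in the other hippocampus libraries. Aldh1a2 was at 359 and 321 in those libraries and at 159.8 to 257 in the others, and Ogn was at 692 and 599 against 269 to 533. The same libraries were the highest in each case, and their meningeal index was 7.61 and 7.41, where the others lay between 6.44 and 7.05. In PFC, heterozygote replicate 1 and wild-type replicate 1 stood out in the same way, with indices of 7.15 and 7.24 against 6.47 to 6.88. There Fmod was at 724 and 776 against 442 to 571 in the others, Aldh1a2 at 264 and 236 against 126 to 175, and Slc6a13 at 256 and 277 against 168 to 226. High libraries thus occurred in both genotypes. The wild-type ones of hippocampus and PFC shared the code 35-1M, while the heterozygote ones had codes that differed. The striatum library of code 35-1M, wild-type replicate 2, did not stand out, with an index of 6.04 in a group from 5.65 to 6.42.

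The same values were computed within each region. Fmod had an r of 0.88 in PFC, 0.93 in hippocampus and 0.86 in striatum, and Aldh1a2 of 0.89, 0.94 and 0.74. Slc6a13 had 0.86, 0.81 and 0.83, and Ogn 0.84, 0.89 and 0.66. Dcn had 0.73, 0.57 and 0.31. Within regions an r of at least 0.7 was reached by 7 members in PFC (1.74% of all genes), 11 in hippocampus (1.81%) and 4 in striatum (0.809%). Fmod also followed the other genes of the group, with an r of 0.89 with Aldh1a2, 0.84 with Slc6a13 and 0.83 with Ogn. The meningeal index itself had an r of 0.75 with an index of 10 mural cell markers. An r of 0.7 or more with the mural index was reached by 4 of 53 members (0.0997% of all genes). These were Slc6a13 at 0.79, Aldh1a2 and Fmod at 0.77 and Col1a1 at 0.76, and Ogn was at 0.68. Within regions, r with the mural index exceeded that with the meningeal index for Ogn in hippocampus (0.96) and Aldh1a2 in striatum (0.80). It also did so for Slc6a13 in hippocampus (0.815 against 0.809) and striatum (0.86). For Fmod, Aldh1a2, Slc6a13 and Ogn it was lower in the other cases, among them all those in PFC. The meningeal index had an r of 0.44 with 12 endothelial markers, which no member followed at that level (0.0176% of all genes). With the choroid plexus index it had 0.11.

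The bases before the start of the genes that followed the meningeal index are shown because these genes moved together between libraries. They were taken from RefSeq on GRCm38.p6, with the gene's own strand read 5′ to 3′, and 41 of the 53 members had an entry. Capitals mark a CCAAT box, a TATA box (TATAAA), a GC box (GGGCGG) or the motif TAATCC, searched on both strands, where overlapping matches on the 2 strands run together. The windows are chr1:134037004-134037253 for Fmod, chr9:71215539-71215788 for Aldh1a2, chr6:121300038-121300226 for Slc6a13 and chr13:49607765-49608014 for Ogn, all on the plus strand. That of Slc6a13 was cut to 189 bases, since the annotation of the files starts the gene 61 bases upstream of RefSeq. CCAAT occurred in 33.8% of all 32851 promoter windows and in 16 of the 41 members, and TATAAA in 12.4% and in 5 of 41.
Fmod: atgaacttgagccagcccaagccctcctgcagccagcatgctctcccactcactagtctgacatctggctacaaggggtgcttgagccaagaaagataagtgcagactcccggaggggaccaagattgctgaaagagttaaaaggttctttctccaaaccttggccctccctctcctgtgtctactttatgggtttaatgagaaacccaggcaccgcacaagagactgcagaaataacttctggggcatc
Aldh1a2: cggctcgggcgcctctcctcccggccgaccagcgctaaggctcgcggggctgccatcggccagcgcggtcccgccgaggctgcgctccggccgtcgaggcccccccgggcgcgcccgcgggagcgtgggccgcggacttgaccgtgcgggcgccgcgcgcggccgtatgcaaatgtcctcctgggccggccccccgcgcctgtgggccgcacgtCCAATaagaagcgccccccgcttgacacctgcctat
Slc6a13: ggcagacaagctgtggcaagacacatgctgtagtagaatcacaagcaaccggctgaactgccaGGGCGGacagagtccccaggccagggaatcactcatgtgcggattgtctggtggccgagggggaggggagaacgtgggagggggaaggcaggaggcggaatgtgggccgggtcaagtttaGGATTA
Ogn: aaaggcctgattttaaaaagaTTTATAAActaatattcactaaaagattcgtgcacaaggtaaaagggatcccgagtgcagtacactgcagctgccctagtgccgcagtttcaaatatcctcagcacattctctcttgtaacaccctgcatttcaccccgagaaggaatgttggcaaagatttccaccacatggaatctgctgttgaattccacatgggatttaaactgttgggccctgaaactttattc
The windows differ in composition, with a GC content of 51.2% for Fmod, 77.6% for Aldh1a2, 59.8% for Slc6a13 and 42.0% for Ogn. Fmod held none of the motifs, Aldh1a2 a CCAAT box close to the start, Slc6a13 a GC box and TAATCC, and Ogn a TATA box far from the start. The window of Ogn ends 31 bases before the start in the annotation of the files, so it does not touch the start used for the levels.

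Other members followed the choroid plexus index. An r of at least 0.7 was reached by 9 of 53, where 0.997% of all genes reached it: Col8a1 at 0.95, Col8a2 at 0.94, Col4a4 at 0.89, Col9a3 at 0.88, Igf2 at 0.81, Col14a1 at 0.76, Lum at 0.75, Col4a3 at 0.73 and Col4a5 at 0.71. Within regions the count was 2 in PFC (1.15% of all genes), 11 in hippocampus (3.51%) and 12 in striatum (4.51%). For Col8a1, a chain of the short network collagens, r was 0.99 in hippocampus and in striatum and -0.13 in PFC, where the index was low. Its normalized count was 40.7 in hippocampus heterozygote replicate 1 and 38.9 in wild-type replicate 6, 143 in heterozygote replicate 2 and 249 to 603 in the other hippocampus libraries. In striatum it was 52.2 in heterozygote replicate 1 and 195 to 584 in the others, and in PFC it was 46.8 to 93.5 throughout. The low libraries of hippocampus and striatum were those low in choroid plexus markers, and they lay at the level of PFC. Col8a1 and Col8a2 had an r of 0.93 with each other, as had Col8a1 and Col9a3.

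**Figure D3:**
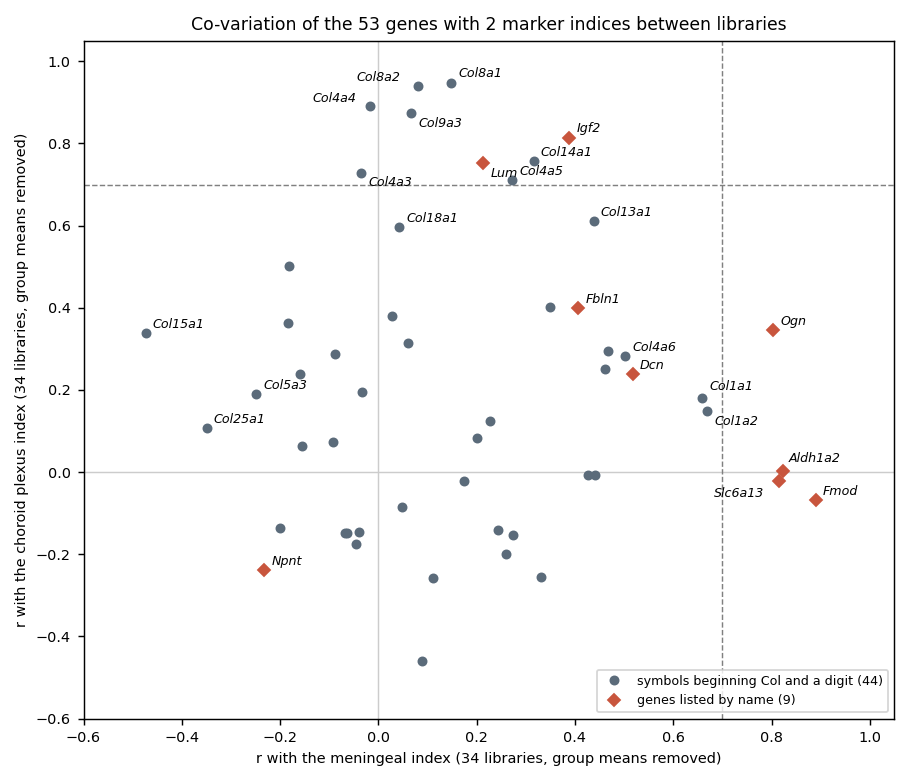
Pearson's r of each member with the choroid plexus index against its r with the meningeal index, over 34 libraries with group means removed; circles are genes with a Col symbol, diamonds the 9 genes picked by name, and dashed lines mark 0.7. Fmod, Aldh1a2, Slc6a13 and Ogn lie past the line on the meningeal side only, and Col8a1, Col8a2, Col4a4, Col9a3, Igf2, Col14a1, Lum, Col4a3 and Col4a5 past the line on the choroid plexus side only.

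The same windows are given for Col8a1 and Col8a2, whose chains associate with each other and whose levels moved together, and for the gap between the heads of Col4a4 and Col4a3 of these genes, which is the stretch upstream of both. Capitals mark GC boxes (GGGCGG on either strand), found in 32.7% of all windows and in 25 of the 41 members. The windows are chr16:57754738-57754987 on the minus strand for Col8a1, chr4:126286544-126286792 on the plus strand for Col8a2 and chr1:82586850-82586920 on the plus strand for the gap.
Col8a1: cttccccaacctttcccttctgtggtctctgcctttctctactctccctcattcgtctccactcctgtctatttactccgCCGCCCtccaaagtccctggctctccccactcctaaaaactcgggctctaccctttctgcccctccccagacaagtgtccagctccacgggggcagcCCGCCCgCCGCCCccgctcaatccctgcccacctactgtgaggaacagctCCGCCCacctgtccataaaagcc
Col8a2: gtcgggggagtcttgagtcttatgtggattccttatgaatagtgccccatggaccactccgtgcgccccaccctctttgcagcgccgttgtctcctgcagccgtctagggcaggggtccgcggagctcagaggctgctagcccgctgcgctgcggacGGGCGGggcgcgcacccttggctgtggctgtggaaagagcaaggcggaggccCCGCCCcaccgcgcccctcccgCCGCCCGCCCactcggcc
Col4a4 to Col4a3: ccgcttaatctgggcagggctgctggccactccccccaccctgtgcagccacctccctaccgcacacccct
Both Col8a1 and Col8a2 held GC boxes, and the gap of 71 bases held none. The forkhead motif GTAAACA and the motif TAATCC, searched because forkhead and OTX factors are known in meninges and choroid plexus, occurred in 3.17% and 6.25% of all windows and in 1 of the 41 members each. Among the windows printed, TAATCC was found for Slc6a13 only, and GTAAACA for none.

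Several members are neighbours on a chromosome, and neighbours did not all move together. Col4a4 and Col4a3, head to head across 71 bases on chromosome 1, had an r of 0.71 over all libraries, 0.95 in hippocampus, 0.91 in striatum and -0.23 in PFC. Col4a1 and Col4a2 overlap by 22 bases head to head on chromosome 8 and had an r of 0.58. Col4a6 and Col4a5, head to head across 1308 bases on chromosome X, had 0.16. Col6a2 and Col6a1, 85.2 kb apart on chromosome 10, had 0.74, and Dcn and Lum, 47.0 kb apart on the same chromosome, 0.50. Col3a1 and Col5a2, 24.6 kb apart, had 0.07, and Col9a1 and Col19a1, 9.2 kb apart, -0.20. Overlap with another gene of the table touched 9 members, for 6 of them on the opposite strand (Ogn, Igf2, Col9a3, Col18a1, Col4a1 and Col4a2), and the sources used here do not say whether counting used strand.

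Of the 9 genes picked as genes of the meningeal matrix, not all followed meningeal markers in these libraries. Fmod, Ogn, Aldh1a2 and Slc6a13 followed the meningeal markers, and with the mural cell index they had an r of 0.68 to 0.79. Dcn, at 0.52, and Fbln1, at 0.41, followed the meningeal markers less closely. Over all libraries, Igf2 and Lum had a higher r with the choroid plexus index (0.81 and 0.75) than with the meningeal index (0.39 and 0.21). This differed by region for Igf2, whose r with the meningeal index was 0.81 in PFC, 0.65 in hippocampus and -0.10 in striatum. With the choroid plexus index Igf2 had 0.46, 0.85 and 0.87. Fbln1 had 0.58, 0.73 and -0.12 with the meningeal index in these regions. Npnt followed neither, at -0.23 with the meningeal and -0.24 with the choroid plexus index. For the common fibril chains, the mean log2 level of Col1a1, Col1a2 and Col3a1 was set against the meningeal index within regions, as a description. A permutation test was run on these values and is not used, since the members were proposed with co-variation in mind. Here the group means were not removed, so a difference between genotypes can enter r. Pearson's r was 0.46 in PFC (Spearman's rho 0.06), 0.73 in hippocampus (rho 0.47) and 0.77 in striatum (rho 0.74). Without the 2 libraries farthest from the median it was 0.29, -0.03 and 0.57, so the hippocampus value rests on heterozygote replicate 5 and wild-type replicate 2.

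The genotype comparison asked whether matrix genes differ between Myt1l heterozygotes and wild type within a region. No member passed in any region: 0 of 53 in PFC, hippocampus and striatum each, where 0.00% of all genes passed in each. At an unadjusted p under 0.05 there were 2 higher and 1 lower members in PFC (5.00% of all genes), 5 and 2 in hippocampus (6.81%) and 6 and 6 in striatum (5.89%). The striatum count includes genes picked for that contrast. Those of PFC and hippocampus include Npnt and Dcn, which were also picked by name, and nothing is read from these counts. The median log2 difference over the members was 0.11 in PFC, 0.05 in hippocampus and -0.02 in striatum. The 95% intervals of the members are drawn in the plot of genotype differences.

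In striatum the lowest values of Dcn, Fmod, Ogn, Aldh1a2 and Slc6a13 were those of heterozygotes. Dcn ran from 241 to 303 normalized counts in heterozygotes (median 279) and from 262 to 416 in wild type (median 369), with means of 273 ± 23.7 (SD, n = 6) and 357 ± 53.9 (SD, n = 6). All 6 heterozygote libraries lay below the wild-type mean, and the groups overlapped between 262 and 303. The log2 difference was -0.37 (SE 0.10), between -0.46 and -0.33 when 1 library was left out, and -0.24 among the libraries with a code of 35. In hippocampus it was -0.22 (SE 0.10) and in PFC 0.04 (SE 0.14).

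Fmod, the gene closest to the meningeal index, ran from 108 to 243 in striatum heterozygotes (median 208) and from 210 to 404 in wild type (median 263), a log2 difference of -0.67 (SE 0.22). Aldh1a2 ran from 34.8 to 107 (median 79.9) against 92.5 to 163 (median 113), a log2 difference of -0.83 (SE 0.27). Ogn ran from 101 to 247 (median 181) against 196 to 305 (median 258), a difference of -0.49 (SE 0.19). The groups overlapped for each of these genes, with every heterozygote library below the wild-type mean. Slc6a13 had the same pattern, at 52.9 to 110 (median 90.2) against 82.2 to 229 (median 123) and -0.62 (SE 0.23). The remaining genes picked by name were also below 0 in striatum, with Igf2 at -0.23, Lum at -0.20, Fbln1 at -0.13 and Npnt at -0.12. Lum turned to 0.03 without heterozygote replicate 1, the striatum library low in choroid plexus markers.

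**Figure D4:**
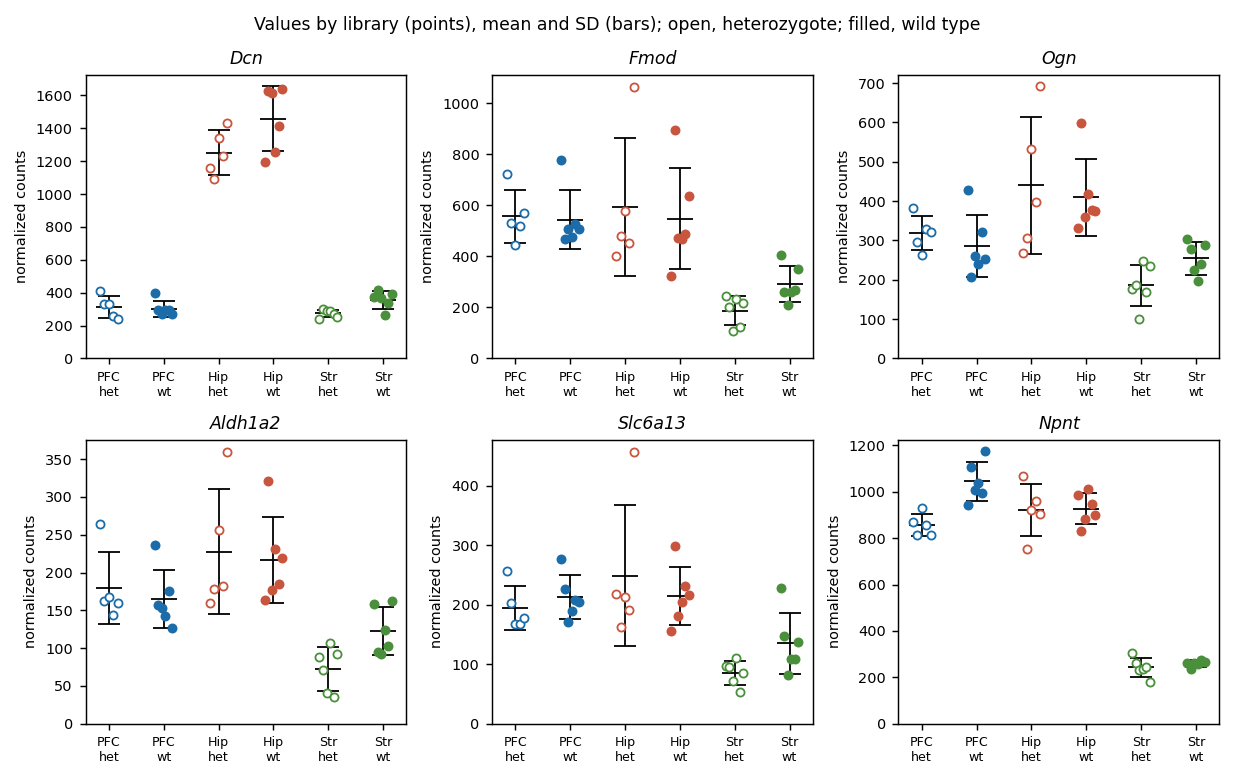
Normalized counts of Dcn, Fmod, Ogn, Aldh1a2, Slc6a13 and Npnt in each library by region; open points are heterozygotes, filled points wild type, and bars give the mean and SD of each group (n = 5 or 6). In striatum the genotypes overlap for every gene shown, and in PFC the Npnt points of the heterozygotes lie below all wild-type points.

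Meningeal markers that are no members had lower values in striatum heterozygotes, without passing the test. Their index had a mean of 5.78 ± 0.26 (SD, n = 6) in striatum heterozygotes, where wild type had 6.02 ± 0.27 (SD, n = 6), a difference of -0.24 (SE 0.15; exact permutation test, 2-sided, p = 0.141; 0.580 adjusted over 6 index tests). Of 11 such markers 10 were below 0, with a median of -0.25. Other cell types had low values too. Below 0 were 8 of 8 microglia markers (median -0.11, 3 at an unadjusted p under 0.05) and 8 of 10 mural cell markers (median -0.10, 1 at that level). So were 11 of 12 choroid plexus markers (median -0.22), 5 of 6 striatal neuron markers (median -0.15, 1 at that level) and 4 of 5 cortical neuron markers (median -0.24). Endothelial markers had a median of -0.02, and oligodendrocyte, astrocyte, blood and hippocampal neuron markers had medians above 0. None of these markers passed, and the part of those cells in the striatum values was not tested. With the meningeal index as a covariate the striatum differences became -0.33 (SE 0.14) for Fmod, -0.46 (SE 0.22) for Aldh1a2, -0.27 (SE 0.17) for Ogn, -0.28 (SE 0.17) for Slc6a13 and -0.32 (SE 0.12) for Dcn. Such shifts depend on each gene's r with the index, so nothing is read from their sizes. In striatum that r was 0.86 for Fmod, 0.83 for Slc6a13, 0.74 for Aldh1a2, 0.66 for Ogn and 0.31 for Dcn. The meningeal index did not pass in PFC (0.16, exact permutation p = 0.290) or hippocampus (0.00, exact permutation p = 0.991). Neither did the choroid plexus index in any region (exact permutation p from 0.229 to 0.827).

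In PFC, Npnt was the only member whose genotypes did not overlap, where 0.462% of all genes did not. No member was so in hippocampus (0.678% of genes) or striatum (0.399%). Npnt was among the genes picked with earlier results of these libraries known, so its values are a description and nothing is read from this count. The heterozygotes were at 813, 815, 855, 868 and 928 normalized counts, and wild type ran from 944 to 1175 with a median of 1023. The log2 difference was -0.29 (SE 0.06), between -0.32 and -0.25 when 1 library was left out. It was -0.24 among the libraries with a code of 35, and -0.25 (SE 0.06) with the meningeal index as a covariate. In hippocampus Npnt was at -0.01 and in striatum at -0.12, the latter -0.03 without heterozygote replicate 6 and -0.19 without heterozygote replicate 1.

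Several collagens stood above 0 in heterozygotes of striatum and hippocampus, none of them past the threshold. Col11a1, a chain of fine fibrils, ran from 941 to 1131 in striatum heterozygotes (median 1034) and from 701 to 1057 in wild type (median 857). In hippocampus it ran from 576 to 763 (median 727) against 469 to 642 (median 568). The groups overlapped in both regions, and every heterozygote library lay above the wild-type mean. The log2 difference was 0.29 (SE 0.08; limma adjusted p = 0.715) in striatum, 0.30 (SE 0.09; limma adjusted p = 0.614) in hippocampus and 0.12 in PFC.

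Col16a1, a collagen on fibril surfaces, was at 0.34 (SE 0.12; limma adjusted p = 0.770) in striatum and 0.46 (SE 0.14; limma adjusted p = 0.661) in hippocampus, and 0.01 in PFC. Its libraries ran from 362 to 599 in hippocampus heterozygotes (median 446) and from 277 to 446 in wild type (median 323). Col2a1, the chain of cartilage fibrils, was at 0.43 (SE 0.14; limma adjusted p = 0.715) and 0.99 (SE 0.33; limma adjusted p = 0.690), and -0.09 in PFC. Its level was low, 20.2 to 71.8 against 16.2 to 46.5 normalized counts in hippocampus. Col5a3, a minor chain of fine fibrils, had the smallest p in striatum, with 162 to 253 (median 215) against 146 to 184 (median 153), a difference of 0.40 (SE 0.11; limma adjusted p = 0.715). Genotypes overlapped for all of these genes.

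On the lower side, Col6a2 in striatum was at -0.30 (SE 0.11; limma adjusted p = 0.770), and Col12a1 and Col6a5 in hippocampus were at -0.29 (SE 0.13; limma adjusted p = 0.727) and -0.54 (SE 0.26; limma adjusted p = 0.746). In PFC, Col6a5 had a difference of 1.16 (SE 0.44; limma adjusted p = 0.977) at a low level, 33.1 ± 22.0 against 12.1 ± 5.30 normalized counts. The heterozygote libraries of Col6a5 lay at 10.7, 11.6, 34.6, 48.9 and 59.8, so 2 of the 5 lay within the wild-type range of 7.1 to 21.1. Other PFC values were 0.29 (SE 0.12) for Col5a1, 0.30 (SE 0.16) for Col22a1, -0.26 (SE 0.22) for Col28a1 and -0.31 (SE 0.27) for Col7a1. The last 2 moved with single libraries, Col28a1 to -0.14 without heterozygote replicate 2 and -0.40 without heterozygote replicate 5, and Col7a1 to -0.08 without heterozygote replicate 2 and -0.15 without wild-type replicate 3.

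**Figure D5:**
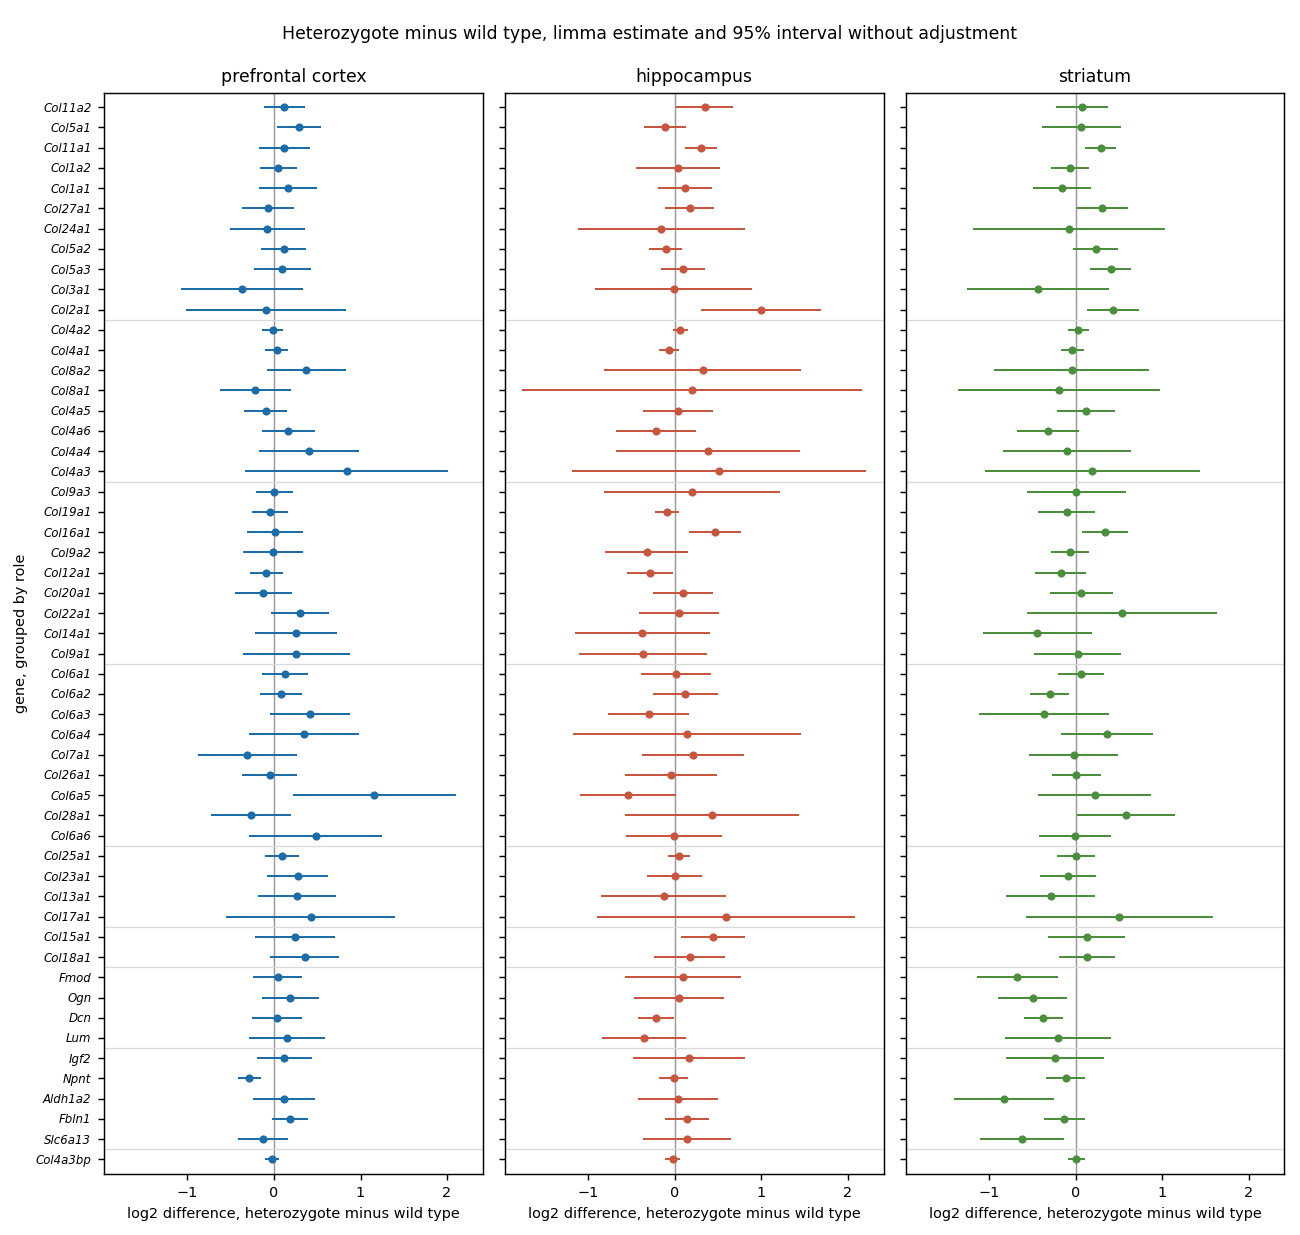
Log2 difference of heterozygotes against wild type with its 95% interval from limma for each of the 53 members, in PFC, hippocampus and striatum. Points of the proteoglycans and the other genes picked by name lie below 0 in striatum, Col11a1, Col16a1 and Col2a1 lie above 0 in hippocampus and striatum, and no member passed the adjusted threshold in any region.

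Whether the genotype difference itself differed between regions was tested as an interaction over all 34 libraries. No member passed for PFC against hippocampus, PFC against striatum or hippocampus against striatum, where 0.00% of all genes passed in each. At an unadjusted p under 0.05 there were 1 higher and 3 lower members (3.76% of all genes), 4 and 0 (3.59%) and 4 and 1 (3.69%). The counts with striatum rest mostly on genes picked with its differences known, and nothing is read from them. As a description, the genotype difference in PFC minus that in striatum was 0.94 for Aldh1a2, 0.71 for Fmod, 0.68 for Ogn and 0.41 for Dcn. The region comparisons share libraries, and each gene's values by region are those given above.

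The other genes of the collagen pathway were taken from lists, and their counts stand beside 46.3%, 56.6% and 47.5% of all genes that passed for PFC against hippocampus, PFC against striatum and hippocampus against striatum. Of 32 measured enzymes and chaperones of collagen modification, 3 were higher and 19 lower in PFC than in hippocampus, 5 and 15 against striatum, and 10 higher and 6 lower in hippocampus than in striatum. With equal totals these became 1 and 23, 3 and 19, and 8 and 8. Adamts14, which trims procollagen, was at -2.41 for PFC against hippocampus and 2.78 for hippocampus against striatum. Sparc, which binds collagen in the matrix, was at -1.97 for PFC against striatum and -1.08 for hippocampus against striatum, and Bmp1, the main procollagen C-proteinase, at 1.02 and 0.85. Of 10 measured receptors, 0 were higher and 4 lower in PFC than in hippocampus, and 4 were higher and 3 lower than in striatum, which became 0 and 4, and 1 and 4, with equal totals. Ddr1, a collagen-binding kinase, was lower in PFC at -0.44 and -0.79.

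Of 8 measured proteases and inhibitors of collagen breakdown, 1 was higher and 3 lower in PFC than in hippocampus, and 2 and 5 against striatum (1 and 4, and 1 and 5, with equal totals), with Timp2 at -0.32 and -0.81 and the collagen-cutting cathepsin Ctsk at 0.63 and 0.81. Of 15 laminins and their partners, 4 were higher and 6 lower in PFC than in hippocampus (3 and 7 with equal totals), with Lamb1, a laminin chain, at -1.81. Of 17 other fibrous matrix genes, 3 were higher and 9 lower there (3 and 11 with equal totals), and 11 were higher and 2 lower in hippocampus than in striatum under either scaling. Tnxb, a tenascin of connective tissue, was at -2.19 for PFC against hippocampus and 1.95 for hippocampus against striatum, the same direction as Dcn. Postn, a matrix protein of connective tissue, was at -1.34 and -1.94 for PFC and hippocampus against striatum. Between genotypes, no gene of these lists passed in any region. At an unadjusted p under 0.05, where 5.00%, 6.81% and 5.89% of all genes lay in PFC, hippocampus and striatum, modification genes numbered 0 higher and 1 lower in PFC, 2 and 0 in hippocampus and 1 and 0 in striatum. Receptors numbered 1 and 0, 2 and 0, and 0 and 1, and breakdown genes 2 and 0, 0 and 0, and 0 and 1. Laminins numbered 1 and 0, 1 and 0, and 1 and 1, and other fibrous genes 2 and 0, 1 and 0, and 1 and 2.

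The genes outside the members and lists whose pattern was most like that of Dcn over the 34 libraries, with group means removed, were Tapbp and Bmp5 at an r of 0.68, Cd74 at 0.67, Phf19 and Aebp1 at 0.66 and Pdgfrl at 0.65. Slc43a1 followed at 0.62, and Fibin, 1700028P14Rik and Tnfrsf1a at 0.60. These values describe the libraries at hand and were picked as the highest of all genes.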

How the data were processed

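RNA sequencing of 34 libraries (total RNA, TruSeq RNA Sample Prep Kit v2, per the labels' protocols) was deposited as 1 table of signal values per gene, which the authors call DESeq counts and which are called normalized counts here. The submitters' processing notes list DESeq2 1.26.0, Salmon 1.1.0, R 3.6.2 and the build GRCm38, without saying what each was used for. The values are not whole, so no count model was used, the depth before scaling is unknown, and the error given is the spread over libraries.

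Symbols, gene types, positions and exon lengths came from GENCODE M21, which held 18533 of the 18548 identifiers. All 53 members had a mean of at least 10, the filter of each fit. Limma 3.58.1 (R 4.3.3; empirical Bayes with trend and robust options) was run on log2(value + 1), 2-sided, with adjusted p at 0.05 over all genes; a pseudocount of 1 understates changes of low genes. Each region was fitted alone for genotype, the 18 wild-type libraries for region, and all 34 for interactions. Indices and correlations used scipy 1.17.1, pandas 2.3.3 and numpy 2.4.6 under python 3.11.15. The fits were tested on simulated data with known changes in genes drawn from all genes tested. In the genotype fits 56% to 63% of log2 changes of 0.5 and 81% to 85% of changes of 1 were recovered. There were 5 to 10 false calls per fit. Recovery was not computed for the members, which varied more than most genes.

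The members and lists were chosen with earlier results of these data known. Named genes were Dcn and Npnt, the 2 highest per kilobase of each role, up to 10 members in each direction past the threshold of a region comparison and up to 3 genes in each direction per pathway list. To these came the 3 members in each direction with the smallest p of a genotype comparison, the 5 highest and 3 lowest correlations with the meningeal index, and the 10 genes most like Dcn. Other members were named to complete a role, a neighbour pair or a pattern after their values were seen. Not every gene that these rules pick is reported here. Alternatives were other pseudocounts, no filter, equal totals, blocks by replicate number or code, code 35 only, each library left out, and covariates for the marker indices, the last added after seeing the data.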

Additional observations from a re-analysis of the deposited data

Results flagged for a closer look

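In groups of 5 or 6 libraries, a library was singled out when its gap to the nearest other library exceeded Dixon's 95% critical value; 120 groups were examined, and chance flags about 1 in 20. In PFC wild type, replicate 1 was high for Dcn at 400.0 normalized counts (others 269 to 294), Fmod at 776 (467 to 526) and Col1a1 at 289 (168 to 201). In PFC heterozygotes, replicate 1 was high for Aldh1a2 at 264 (143 to 168), Col1a1 at 337 (189.6 to 217) and the meningeal index at 7.15 (6.78 to 6.88). Hippocampus heterozygote replicate 5 was high for Fmod at 1064 (400.1 to 577) and Slc6a13 at 457 (163 to 219). Hippocampus wild-type replicate 2 was high for Ogn at 599 (330.3 to 417). Each of these libraries had the highest meningeal index of its group.

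The choroid plexus index was low in hippocampus wild-type replicate 6 at 6.34 (others 8.84 to 9.82) and in striatum heterozygote replicate 1 at 6.01 (9.04 to 10.3). Col3a1, a chain of common fibrils, was high in striatum heterozygote replicate 4 at 181 (50.5 to 98.4). Col6a5 was high in hippocampus wild-type replicate 1 at 143 (39.1 to 62.3), and without that library the heterozygote difference of Col6a5 in hippocampus was -0.30.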

How the results depend on the processing

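The number of members that passed between genotypes stayed at 0 in all 3 regions under every alternative run, and the total counts between regions stayed within 1.5 times, though equal totals lowered the number higher in PFC than in hippocampus from 12 to 7. The totals were 26 to 30 for PFC against hippocampus, 27 to 31 for PFC against striatum and 31 to 36 for hippocampus against striatum when 1 library was left out. Replicate numbers were not used as pairs in the main fits, and the r of deviations between libraries of the same number ran from -0.10 to 0.12. In wild-type hippocampus and striatum the same number also carried the same code, with an r from 0.035 to 0.10. Such low values do not show whether libraries came from separate animals. A replicate block gave 0 between genotypes and 11 higher and 18 lower, 11 and 17, and 20 and 16 between regions; a code block gave 12 and 19, 12 and 18, and 20 and 18. The Dcn difference in PFC turned from 0.04 to -0.068 without heterozygote replicate 1 (range over libraries left out -0.068 to 0.126) and to -0.097 with the meningeal index as a covariate. That of Npnt in hippocampus turned from -0.01 to 0.057 without heterozygote replicate 2, 0.0044 without wild-type replicate 1 and 0.012 without wild-type replicate 4 (range -0.069 to 0.057); the cause was not tested. The r of the fibrillar collagen index with the meningeal index ran from 0.51 to 0.84 in hippocampus when 1 library was left out, lowest without heterozygote replicate 5, from 0.16 to 0.57 in PFC and from 0.63 to 0.81 in striatum. Of the single values followed through the alternatives, 1485 kept their direction and side of the threshold, 63 kept the direction only and 5 turned, the Dcn and Npnt values above. Outside that set, Lum in striatum turned to 0.03 and Fmod for PFC against hippocampus to -0.05, as reported. Npnt for PFC against hippocampus turned to -0.10 with heterozygote libraries in place of wild type. Low genes are limited by their level: Col6a6, Col2a1, Col28a1 and Col9a1 stood under 5 normalized counts per kilobase.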
